A study of Mus musculus with 12 samples.

Results

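The *Cyp2b* and *Cyp2a* genes of the mouse liver encode cytochrome P450 enzymes, and CAR (*Nr1i3*) and PXR (*Nr1i2*) are the nuclear receptors best known for switching several of them on. These 8 genes (*Cyp2b9*, *Cyp2b10*, *Cyp2b13*, *Cyp2a4*, *Cyp2a5*, *Cyp2a12*, *Nr1i3* and *Nr1i2*) were followed across hepatocyte RNA of mice with and without excision of the GATA factors. Their probes were chosen by symbol and by detection p-value: all array probes annotated to these symbols with a detection p of at most 0.05 on at least 1 of the 12 arrays. This gave 17 of the 20561 probes detected in the series, 11 for the P450 genes and 6 for the receptors, and 8 of the 10838 named genes. No annotated probe of the 8 genes was left out by this rule, but this could not have come out otherwise. Symbols were available only for the 19627 probes of the authors' table, which had already been filtered on detection. Probes of these genes outside that table could not be seen. The probe nearest to its limit was that of *Cyp2b13*, detected on 1 array. The genes were picked with earlier results of the same comparison known, so counts of changed members are a description and support nothing by themselves.

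All mice were homozygous for floxed alleles of *Gata4* and *Gata6* (Gata4,6 fl/fl), of mixed C57BL/6 x 129Sv background and 2.5 to 4.5 months of age. Each had been injected into a vein, 2 weeks before, with an adeno-associated virus of serotype 8. In the 6 AAV-Cre samples this virus carried Cre recombinase, and in the 6 AAV-GFP samples green fluorescent protein as the control, both under the hepatocyte-active Tbg promoter, so that excision is limited to hepatocytes and the controls carry the same floxed alleles. Total RNA of purified hepatocytes was hybridized to Illumina MouseWG-6 v2 arrays, 1 array per sample. The labels do not say that each sample is a separate animal, so the p-values measure the spread between these samples. Values below are log2 quantile-normalized probe signals. Differences are AAV-Cre minus AAV-GFP on that scale, and adjusted p-values are from limma with Benjamini-Hochberg adjustment over all 20561 probes. The exported signal still contains the array background, which compresses the folds of dim probes.

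P450 enzymes of these subfamilies sit in the endoplasmic reticulum and oxidize drugs, dietary compounds and steroids. CAR rests in the cytoplasm and PXR responds to a wide range of ligands. Once activated, either receptor pairs with the retinoid X receptor on DNA, and *Cyp2b10* is the textbook CAR target induced by phenobarbital. *Cyp2b9*, *Cyp2b13* and *Cyp2a4* are also known as genes whose liver transcripts are more abundant in female than in male mice, under the control of the pattern of growth hormone release.

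The array facts that bear on these genes are as follows. Each array detected between 14318 and 16381 probes, and the median exported signal ran from 215 to 288. *Gata4* was detected on 0 of 6 AAV-GFP and 1 of 6 AAV-Cre arrays, so it checks nothing. The brighter *Gata6* probe went against the labels, with 9.88 ± 0.23 (SD, n = 6) on AAV-GFP and 11.59 ± 0.37 on AAV-Cre arrays (adjusted p = 3.77e-04). The dimmer *Gata6* probe was detected on 0 of 6 AAV-GFP and 4 of 6 AAV-Cre arrays (difference 0.26, adjusted p = 0.80). By RT-qPCR the study reported *Gata4* and *Gata6* mRNA depleted in such hepatocytes, and GATA4 lost from the target genes it examined. Whether either *Gata6* probe lies in the floxed exon was not tested, and the second group is therefore called the arrays labelled AAV-Cre. Replicate 3 labelled AAV-Cre stood apart: *Xist*, the transcript of the inactive X chromosome, read 13.31 there and 7.70 to 7.95 on the other 11 arrays, while the Y-linked *Eif2s3y* read 7.75 against 11.53 to 11.89. It is thus the 1 array with a female pattern, and results are given with and without it. Of 7 measured hepatocyte, 10 endothelial and 10 macrophage markers, 0 passed the test, with median differences of 0.01, -0.01 and -0.04. The mean signal of the hepatocyte list was 11.91 to 12.21 across arrays, and that of the endothelial list 8.46 to 9.30, with a lowest detectable level of about 8.22. These means do not describe each marker. Of the endothelial list, *Clec4g* read 10.70 to 13.07 and *Stab2* 8.76 to 10.42, while no other read above 9.65 (*Oit3*). Of the hepatocyte list, *Fgb* and *Tat* read 7.88 to 8.51. No source names the slide of an array.

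The 6 P450 genes lie on chromosome 7 of the mouse, in the order *Cyp2b10*, *Cyp2b13*, *Cyp2b9*, *Cyp2a4*, *Cyp2a5* and *Cyp2a12*, within a run of 15 protein-coding genes. Promoter windows of 300 bases (250 before and 50 after each start, RefSeq, GRCm38.p6, plus strand) were compared, because some of these genes are near-copies and yet had different signals. *Cyp2b9* (chr7:26173159-26173458) and *Cyp2b13* (chr7:26061245-26061544) shared 298 of 300 bases. Capitals mark the bases that differ, T48C and C104T, counted from 1 at the 5′ end of the *Cyp2b9* window with the *Cyp2b9* base first.
Cyp2b9: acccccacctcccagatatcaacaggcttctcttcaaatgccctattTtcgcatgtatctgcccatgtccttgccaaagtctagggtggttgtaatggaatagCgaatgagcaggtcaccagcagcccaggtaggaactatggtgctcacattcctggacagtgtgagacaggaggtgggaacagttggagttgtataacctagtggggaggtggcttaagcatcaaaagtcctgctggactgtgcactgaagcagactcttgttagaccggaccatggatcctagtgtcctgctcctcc
Cyp2b13: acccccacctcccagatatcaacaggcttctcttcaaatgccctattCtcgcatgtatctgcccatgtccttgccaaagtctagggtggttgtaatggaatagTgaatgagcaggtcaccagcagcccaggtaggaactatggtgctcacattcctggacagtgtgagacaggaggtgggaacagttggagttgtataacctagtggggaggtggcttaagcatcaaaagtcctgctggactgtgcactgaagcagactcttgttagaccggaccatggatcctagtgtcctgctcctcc

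*Cyp2a4* (chr7:26306942-26307241) and *Cyp2a5* (chr7:26835089-26835388) shared 294 of 299 aligned bases, and are shown because their signals moved together. Capitals mark the 5 differing bases, C19T, T131C, G161A, G205T and T270C, counted in the *Cyp2a4* window with the *Cyp2a4* base first.
Cyp2a4: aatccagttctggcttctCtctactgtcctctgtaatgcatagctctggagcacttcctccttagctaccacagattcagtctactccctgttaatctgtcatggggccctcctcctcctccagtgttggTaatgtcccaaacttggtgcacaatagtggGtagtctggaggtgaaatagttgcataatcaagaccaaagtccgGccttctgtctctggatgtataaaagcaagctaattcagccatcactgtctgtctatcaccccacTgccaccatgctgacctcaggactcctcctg
Cyp2a5: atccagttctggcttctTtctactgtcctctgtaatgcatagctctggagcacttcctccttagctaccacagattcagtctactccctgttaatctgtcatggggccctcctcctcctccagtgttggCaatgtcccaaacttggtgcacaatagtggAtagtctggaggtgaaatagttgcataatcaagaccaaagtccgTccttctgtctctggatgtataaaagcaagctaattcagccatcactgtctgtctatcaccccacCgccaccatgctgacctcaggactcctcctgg

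The other pairs among the 6 windows matched at 29.7% to 49.2% of bases when aligned without gaps. *Cyp2a12* (chr7:27028840-27029139) is shown because it was the 1 member whose signal fell. Capitals mark its matches to the GATA motif (AGATA, or the same word opening with T, followed by A or G), searched on both strands.
Cyp2a12: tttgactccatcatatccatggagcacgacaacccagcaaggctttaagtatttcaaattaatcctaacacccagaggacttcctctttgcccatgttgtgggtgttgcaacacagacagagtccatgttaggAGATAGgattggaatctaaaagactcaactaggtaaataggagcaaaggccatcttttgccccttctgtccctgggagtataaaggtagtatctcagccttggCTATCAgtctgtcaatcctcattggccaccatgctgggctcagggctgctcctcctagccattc

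The *Cyp2a12* window held AGATAG, at -117 from the start, and CTATCA, a match of the minus strand, at -14 (first base of each). A GATA word was also in the windows of *Cyp2a4* and *Cyp2a5*, in each case CTATCA just after the start, and in 29.8% of all 32851 promoter windows of the same length. The *Cyp2b9*, *Cyp2b10* and *Cyp2b13* windows held none of these words. The nuclear receptor half-site AGGTCA, or the variant of it that is spelled AGTTCA, was found for *Cyp2b9*, *Cyp2b13*, *Cyp2a4* and *Cyp2a5* and in 27.7% of all windows. The *Cyp2b9* and *Cyp2b13* match was AGGTCA in both, in bases that do not differ between them. Direct repeats of either word with 4 bases between the copies (the DR4 motif) were in 0 of the 6 windows and in 0.0274% of all. The C/EBP word TTGCNNAA was in 5 of the 6, all but *Cyp2a12*, and in 10.8% of all windows, and the STAT5 word TTCNNNGAA was in 0 of the 6 and in 8.3% of all. TATAAA stood before the start of all 3 *Cyp2a* genes, in 0 of the 3 *Cyp2b* windows and in 13.6% of all windows. Such matches are letters in a window and describe no binding. The phenobarbital-responsive enhancer of *Cyp2b10* is known to lie farther upstream than these windows reach.

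Among the members, *Cyp2b9* rose and *Cyp2a12* fell, and the other 15 probes did not pass the test. That is 2 of 17 probes at an adjusted p under 0.05, beside 34 of all 20561 probes (0.165%), of which 5 (0.0243%) were higher and 29 (0.141%) lower in the arrays labelled AAV-Cre. At an adjusted p under 0.25, the looser threshold of the study, 111 probes (0.54%) were called and the members called were the same 2. The 2 groups were fully separate for these 2 member probes and for 103 probes in all (0.501%), 33 (0.16%) higher and 70 (0.34%) lower. Without AAV-Cre replicate 3, 28 probes (0.136%) were called, the same 2 members among them. Nothing is read from these counts, since the members were picked with the comparison known.

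**Figure D1:**
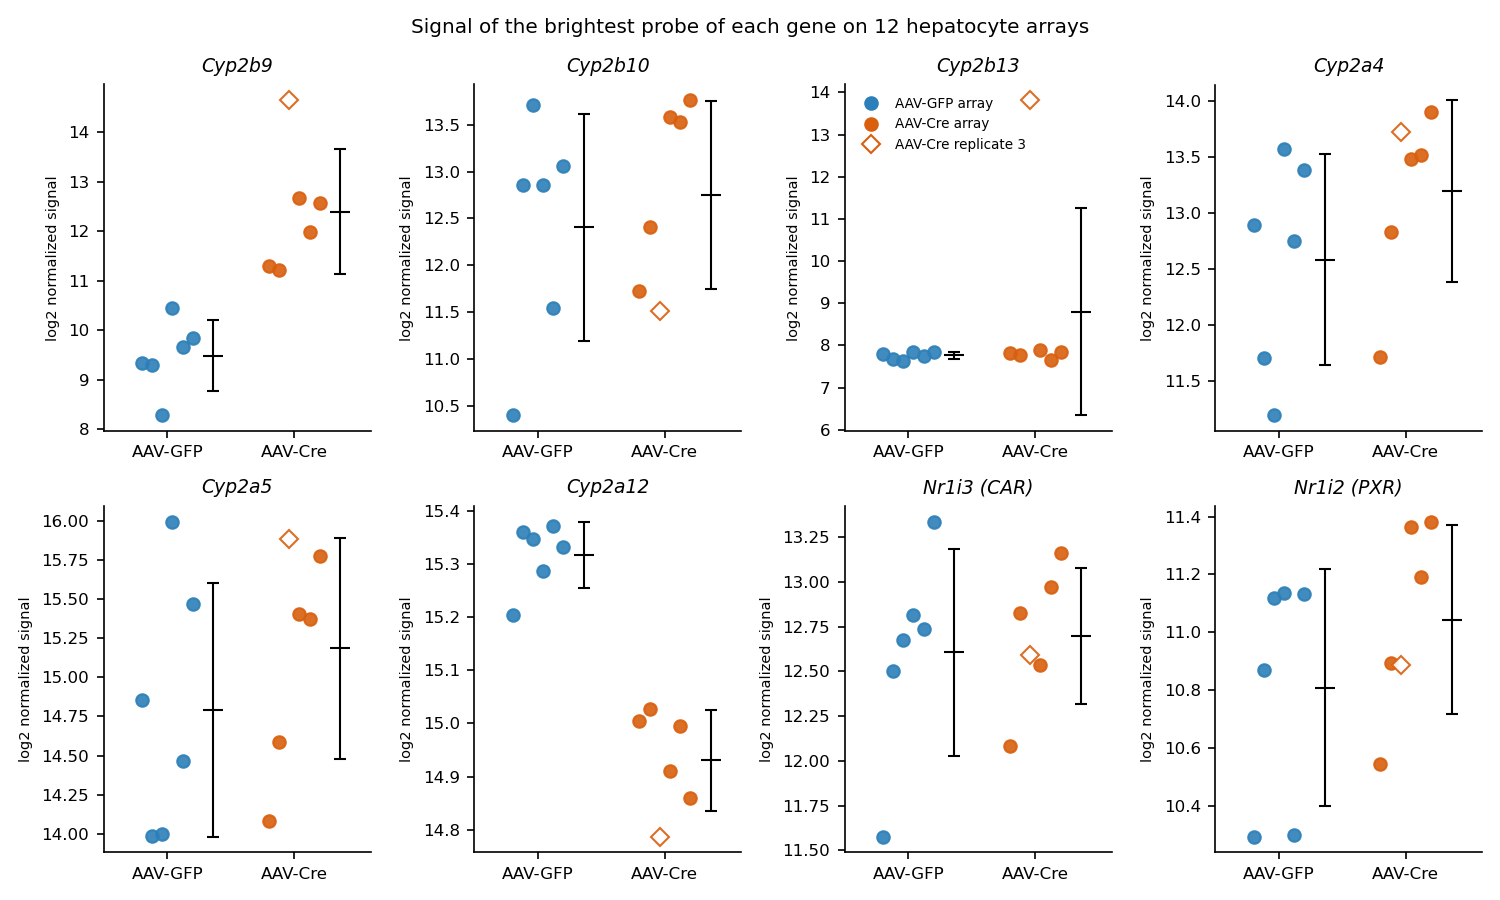
Log2 normalized signal (y axis) of the brightest probe of each of the 8 genes on the 6 AAV-GFP and 6 labelled AAV-Cre arrays. Each point is 1 array, the open diamond is AAV-Cre replicate 3, bars are mean ± SD, and each panel has its own y range. All AAV-Cre points of *Cyp2b9* lie above, and all of *Cyp2a12* below, the AAV-GFP points, and *Cyp2b13* is bright on 1 array.

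*Cyp2b9*, a steroid hydroxylase of the female mouse liver, had the largest difference of the 17 probes. Its signal (probe ILMN_2617625) on the AAV-GFP arrays was 8.28 at the lowest, 9.50 at the median and 10.45 at the highest. The arrays labelled AAV-Cre read 11.21, 12.27 and 14.64. Every array labelled AAV-Cre was above every control array, with replicate 3 the highest and replicates 1 and 2 the lowest of their group. The group means were 9.48 ± 0.72 and 12.39 ± 1.26 (SD, n = 6 each), a difference of 2.91 (SE 0.51, 95% interval 1.81 to 4.02) or 7.53-fold. Limma gave an adjusted p of 0.0421, and the exact two-sided permutation test over arrays 0.00216, the smallest p that 6 against 6 allows.

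The *Cyp2b9* difference did not rest on the female-pattern array. Without it the 5 remaining arrays ran from 11.21 to 12.67, still above all controls, and the difference was 2.46, or 5.52-fold (adjusted p = 0.0188). The call was close to its threshold in other ways: with median scaling in place of quantile normalization the difference was 2.97 with an adjusted p of 0.0648, with normexp background correction 3.52 with 0.0818, and without a filter on detection 2.91 with 0.0638. With same-numbered arrays of the 2 groups fitted as a replicate block it was 2.91 with 0.132. Leaving out single arrays gave differences of 2.46 to 3.15 and adjusted p-values of 0.0188 to 0.118. The adjusted p was above 0.05 when any one of the 6 control arrays, or AAV-Cre replicate 4, 5 or 6, was left out.

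*Cyp2b13*, the close paralogue with nearly the same promoter window, showed an on-off pattern instead. Its probe ILMN_1214531 read 7.64, 7.78 and 7.85 (lowest, median and highest) on the AAV-GFP arrays, where it was detected on none. On the arrays labelled AAV-Cre it read 13.82 on replicate 3 and 7.65 to 7.88 on the other 5. The single bright array was the one with the female pattern, and it was 48.1-fold above the lowest detectable level. The group mean of 8.80 ± 2.46 was raised by that array alone. It lay 1.49-fold above the lowest detectable level, a bound that rests on 1 detected array and describes no change on the other 5. The difference did not pass the test (1.04, adjusted p = 1.00, exact permutation p = 0.247). Without replicate 3 the difference was 0.04. On the 11 other arrays, therefore, *Cyp2b9* was detected on every one and *Cyp2b13* on none. Whether the probes of these 2 genes also capture transcripts of each other was not tested. This bears on the *Cyp2b9* reading of replicate 3, where both were bright.

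*Cyp2b10*, the phenobarbital-inducible member, varied widely within both groups. Probe ILMN_2594926 read 10.40, 12.85, 13.71, 12.86, 11.55 and 13.06 on AAV-GFP replicates 1 to 6. It read 11.72, 12.40, 11.51, 13.58, 13.53 and 13.76 on replicates 1 to 6 labelled AAV-Cre. The groups overlapped over most of their range, and the female-pattern array was the lowest of its group. The difference was 0.35 (SE 0.55, 95% interval -0.84 to 1.54, adjusted p = 1.00, exact permutation p = 0.58). The interval holds increases and decreases alike, and its bounds are not a limit of detection. The second *Cyp2b10* probe, ILMN_1215955, lay at background (8.25 in both groups, detected on 2 and 3 arrays), yet its values followed the first across the 12 arrays (r = 0.83 as a description).

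*Cyp2a12*, a hydroxylase of steroids and bile acids, fell by a small amount with little scatter. Its probe ILMN_2645815 was bright on every array. The AAV-GFP arrays read 15.20, 15.36, 15.35, 15.29, 15.37 and 15.33 (replicates 1 to 6). Those labelled AAV-Cre read 14.79, 14.95 and 15.03 at the lowest, median and highest, with replicate 3 the lowest. The highest array labelled AAV-Cre stayed below the lowest control, and the difference was -0.39 (SE 0.06, 95% interval -0.52 to -0.26), 1.31-fold lower, with an adjusted p of 0.0204 and an exact permutation p of 0.00216. Without replicate 3 it was -0.36 (adjusted p = 0.048). The SD within groups was 0.06 and 0.09, the smallest for AAV-GFP among the 17 probes, against 0.72 and 1.26 for *Cyp2b9*.

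The call on *Cyp2a12* depended on how the arrays were scaled. Median scaling left a difference of -0.32 with an adjusted p of 0.605, and normexp -0.39 with 0.254. The full separation of the groups also depended on it, as they overlapped in the exported signals and after median scaling. As exported, AAV-GFP replicate 4 read 32411, below AAV-Cre replicate 1 at 41613 and replicate 2 at 37119. The replicate block gave -0.39 with an adjusted p of 0.0923. Leaving out single arrays gave -0.41 to -0.36 with adjusted p-values of 0.0233 to 0.0666. The adjusted p was above 0.05 without AAV-GFP replicate 2, 3 or 5 and without AAV-Cre replicate 4 or 6. The direction was downward in each of these.

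*Cyp2a4*, a female-biased steroid hydroxylase, and *Cyp2a5*, the mouse coumarin hydroxylase, were bright and scattered in both groups. *Cyp2a4* (ILMN_1250364) read 12.89, 11.71, 11.20, 13.57, 12.75 and 13.39 on AAV-GFP replicates 1 to 6. It read 11.71, 12.83, 13.72, 13.49, 13.52 and 13.90 on those labelled AAV-Cre. Replicates 3 to 6 labelled AAV-Cre were all above 5 of the 6 controls, but replicate 1 was as low as AAV-GFP replicate 2 and the groups overlapped. The difference of 0.61 (95% interval -0.33 to 1.56) did not pass the test (adjusted p = 1.00, exact permutation p = 0.232).

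The brightest *Cyp2a5* probe, ILMN_3159131, read 14.85, 13.99, 14.00, 15.99, 14.46 and 15.46 on the AAV-GFP arrays. It read 14.09, 14.59, 15.88, 15.41, 15.37 and 15.77 on those labelled AAV-Cre. AAV-GFP replicate 4 was the highest of all 12, and its difference of 0.39 (95% interval -0.43 to 1.21) did not pass the test (adjusted p = 1.00, exact permutation p = 0.385). The other 4 *Cyp2a5* probes gave differences of 0.61 (ILMN_1229267), 0.26 (ILMN_1244847), 0.61 (ILMN_2734598) and 0.06 (ILMN_3079804), and none passed. Apart from ILMN_3079804, the 5 probes followed one another closely, with r of 0.96 to 0.99 over the arrays, while that probe, the dimmest, reached 0.69 to 0.75 with the rest.

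**Figure D2:**
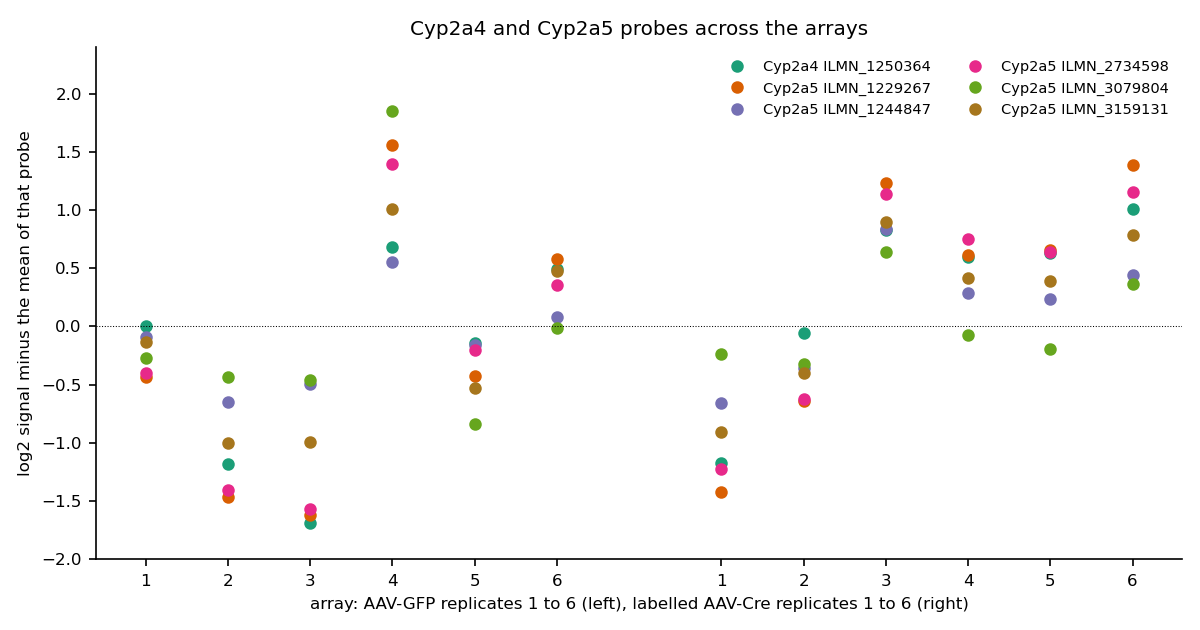
Log2 signal of the *Cyp2a4* probe and the 5 *Cyp2a5* probes minus the mean of each probe over the 12 arrays (y axis), for each array (x axis, AAV-GFP replicates on the left and labelled AAV-Cre on the right). The 6 probes are low together on AAV-GFP replicates 2 and 3 and high together on AAV-GFP replicate 4 and AAV-Cre replicates 3 and 6, apart from ILMN_3079804, which strays on several arrays.

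The receptors showed no detectable difference. *Nr1i3* (CAR), by its brightest probe ILMN_1212992, read 11.58, 12.50, 12.68, 12.82, 12.73 and 13.34 on AAV-GFP replicates 1 to 6. On those labelled AAV-Cre it read 12.08, 12.83, 12.59, 12.54, 12.97 and 13.16. The median was 12.71 in both groups, and the difference was 0.09 (95% interval -0.44 to 0.62, adjusted p = 1.00, exact permutation p = 0.76). The other bright probes gave 0.06 (ILMN_2588846) and 0.10 (ILMN_2926661), and these 3 probes correlated at 0.93 to 0.95. ILMN_1221049 and ILMN_2481771 lay at or near background, at means of 8.14 to 8.42, and gave 0.05 and 0.03.

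*Nr1i2* (PXR) was measured by 1 probe, ILMN_2645737. It read 10.29, 10.87, 11.12, 11.14, 10.30 and 11.13 on the AAV-GFP arrays and 10.54, 10.89, 10.89, 11.37, 11.19 and 11.38 on those labelled AAV-Cre. The 3 highest values were all of arrays labelled AAV-Cre (replicates 4, 5 and 6), but the groups overlapped. The difference of 0.24 (SE 0.19, 95% interval -0.17 to 0.64) did not pass the test (adjusted p = 1.00, exact permutation p = 0.255).

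**Figure D3:**
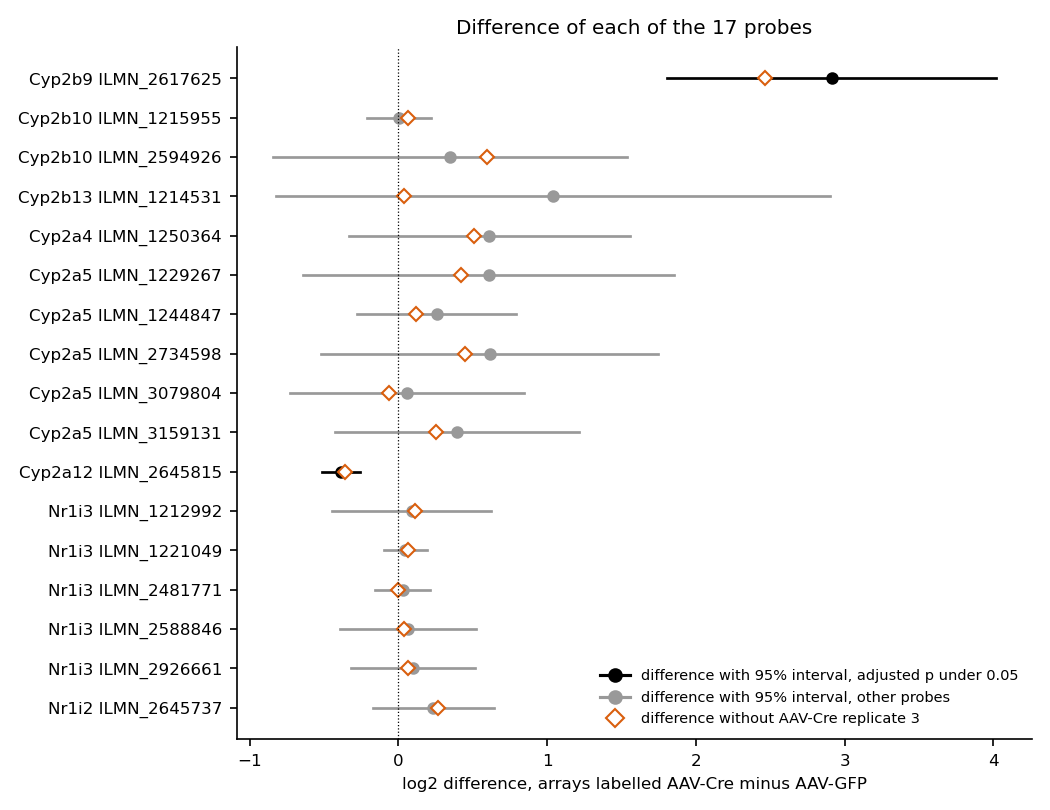
Log2 difference of arrays labelled AAV-Cre minus AAV-GFP (x axis) for each of the 17 probes (y axis). Points are differences over 6 against 6 arrays with 95% intervals, black where the adjusted p was under 0.05, and open diamonds are the differences without AAV-Cre replicate 3. Only the intervals of *Cyp2b9* (1.81 to 4.02) and *Cyp2a12* (-0.52 to -0.26) leave out 0.

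Between arrays, the members fell into pairs that varied together. Correlations over the 12 arrays were computed for all 28 pairs of the 8 genes (brightest probe of each, permutation test with 100000 resamples, Benjamini-Hochberg over the 28), and 6 pairs had an adjusted p of r under 0.05. The closest was *Cyp2a4* with *Cyp2a5* (r = 0.94, permutation p = 1e-05, the smallest these resamples can give, adjusted 2.80e-04, rho = 0.94, permutation p = 2e-05, adjusted 5.60e-04). It held within the AAV-GFP arrays (r = 0.92) and within those labelled AAV-Cre (r = 0.96). The probe sequences were not used here, so whether the *Cyp2a4* and *Cyp2a5* probes capture transcripts of both genes was not tested.

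*Cyp2b10* followed PXR closely and CAR less so. For *Nr1i2* and *Cyp2b10*, r was 0.90 (permutation p = 9e-05, adjusted 8.40e-04) and rho 0.87 (permutation p = 5.4e-04, adjusted 0.00504). Within groups r was 0.92 on the AAV-GFP and 0.90 on the AAV-Cre arrays, and leaving out the 2 arrays farthest from the *Cyp2b10* median gave 0.94. Of the 20559 probes of other genes, 26 (0.126%), *Nr1i2* included, had an r with *Cyp2b10* at least as high as that of *Nr1i2*. For *Nr1i3* and *Cyp2b10*, r was 0.71 (permutation p = 0.00919, adjusted 0.0473) and rho was 0.53 (permutation p = 0.0804, adjusted 0.15). Within groups r was 0.74 on the AAV-GFP arrays (exact permutation p = 0.101, adjusted 0.324) and 0.66 on the AAV-Cre arrays (exact permutation p = 0.149, adjusted 0.297). It dropped to 0.45 without the 2 farthest arrays, AAV-GFP replicate 1 and AAV-Cre replicate 3. Without AAV-Cre replicate 3 alone it was 0.73, so its size depended on the arrays kept. An r with *Cyp2b10* of at least the 0.71 of *Nr1i3* was reached by 522 probes (2.54%). The difference between the r of the receptors was not tested.

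The overall signal of the arrays moved with this pattern. The median exported signal of the arrays correlated at -0.65 with *Cyp2b10*, -0.63 with *Nr1i2* and -0.68 with *Nr1i3* (n = 12, as a description), and its part in the relation was not tested. AAV-GFP replicate 1, with a median signal of 286, was the lowest array for all 3 genes.

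*Cyp2b9* and *Cyp2a12*, the 2 members with separate groups, were compared within groups only. On the AAV-GFP arrays the r was -0.18 (exact permutation p = 0.665, adjusted 0.887 over 28 pairs). Among those labelled AAV-Cre it came to -0.94 (exact permutation p = 0.00417, adjusted 0.0778; rho = -0.94, exact permutation p = 0.0167, adjusted 0.156). The arrays with the highest *Cyp2b9* thus had the lowest *Cyp2a12*, though the relation did not pass the adjustment, and 47 of all probes (0.229%), *Cyp2a12* included, were as strongly opposed to *Cyp2b9* on these 6 arrays. On deviations from the group means over all 12 arrays, r was -0.73, and -0.55 without AAV-Cre replicate 3. Whether the relation differed between the groups was not tested.

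The other 2 pairs with an adjusted p under 0.05 were those of *Cyp2b13* with *Cyp2b9* and with *Cyp2a12*, which are not described further because *Cyp2b13* was detected on 1 array. *Cyp2b9* and *Cyp2a4*, both female-biased genes, had r of 0.90 within the AAV-GFP arrays (exact permutation p = 0.00417, adjusted 0.0583) and 0.65 within those labelled AAV-Cre (exact permutation p = 0.179, adjusted 0.334). *Nr1i3* and *Nr1i2* themselves did not pass (r = 0.67, permutation p = 0.015, adjusted 0.06).

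**Figure D4:**
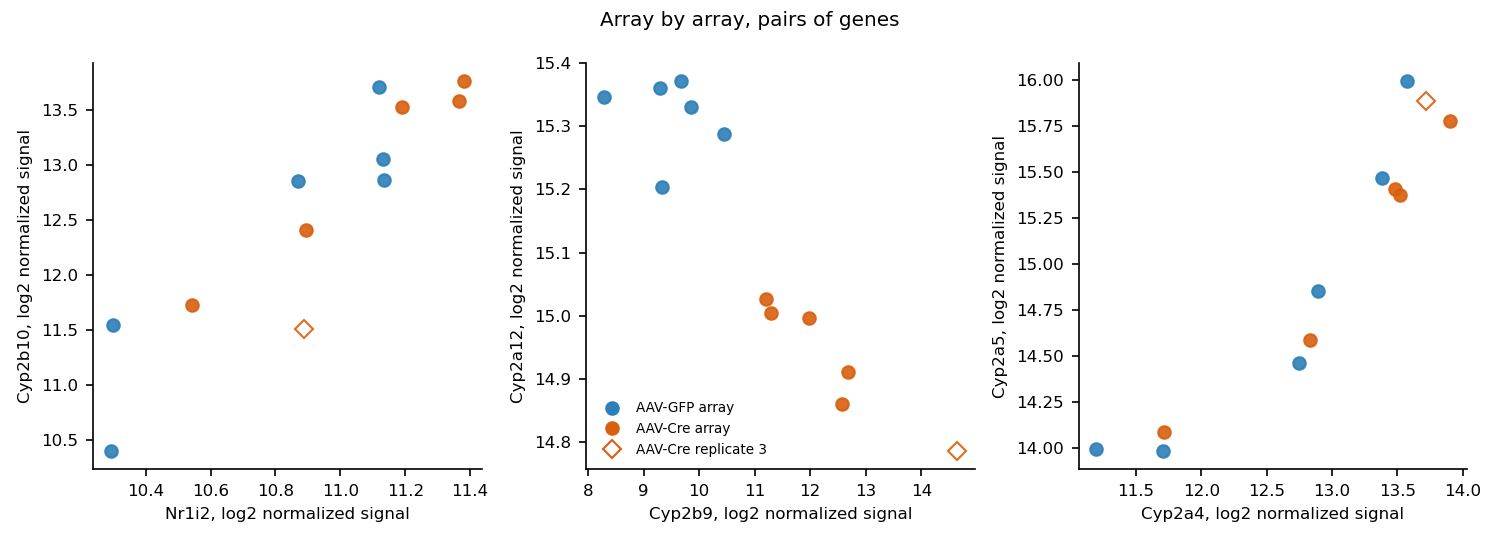
Log2 normalized signals of *Cyp2b10* against *Nr1i2* (left), *Cyp2a12* against *Cyp2b9* (middle) and *Cyp2a5* against *Cyp2a4* (right), 1 point per array (n = 12). The left and right panels show both groups along a common slope (r = 0.90 and 0.94), while in the middle the groups are apart and a slope is seen among the arrays labelled AAV-Cre (r = -0.94) and not among AAV-GFP (r = -0.18).

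No known target gene of CAR and PXR measured outside the members passed the test in the direction of *Cyp2b9*. Of 44 listed targets outside the members, 37 were measured, 0 were higher, 1 was lower and 36 did not pass. Their median difference was -0.16 (12 above and 25 below 0), beside 0.001 for all 10838 genes. Of all 10838 genes, 4 were called higher and 19 lower. Nothing is therefore read from counts of 0 or 1 in this list and those that follow. The 1 that fell was *Aldh1a7*, an aldehyde dehydrogenase, from 13.19 ± 0.16 to 12.29 ± 0.25 (SD, n = 6 each, difference -0.90, adjusted p = 0.00434). Its highest array labelled AAV-Cre (12.61) lay below the lowest control (12.95). *Gstm4*, a glutathione transferase, gave -0.65 (adjusted p = 0.171), and *Cyp2c29*, another inducible P450, -1.09 (adjusted p = 0.201). The study, by SAM at a looser threshold, listed *Cyp2c29* as lower after the double excision, with GATA4 bound near it. It also reported the change of *Cyp2c29* as significant by RT-qPCR. *Gstt1*, a theta-class transferase, gave -0.70 (adjusted p = 0.203). It passed the test without AAV-Cre replicate 3 (-0.86, adjusted p = 0.00788), which read 13.49 against 12.24 to 12.92 on the other 5 arrays of its group.

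No measured gene of the machinery around the receptors and enzymes passed the test. With 4 genes higher and 19 lower of all 10838, a count of 0 in such short lists shows no lack of change. Of 28 partners and coregulators of CAR and PXR, 22 were measured, 0 were called and the median difference was 0.01. The lowest p-values were those of *Cebpb*, a liver leucine zipper factor (0.36, adjusted p = 0.92), and *Foxo1*, a forkhead factor that can bind CAR (0.45, adjusted p = 1.00). Of 13 genes for P450 electron donors and haem synthesis, 10 were measured and 0 called, with a median of 0.03. *Hmox1*, which breaks down haem, gave 0.39, and *Alas1*, the rate-limiting enzyme of haem synthesis, 0.20 (adjusted p = 1.00 each). Of 14 regulators of *Cyp2a5* and NRF2 targets, 11 were measured and 0 called, with a median of -0.01. *Nfe2l2*, which encodes NRF2 itself, gave -0.25 (adjusted p = 1.00), and *Arnt*, the partner of the aryl hydrocarbon receptor, 0.18 (adjusted p = 0.992).

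Of 23 listed neighbours of the members, 15 were measured and 0 called, with a median of 0.04 (10 above and 5 below 0). *Cyp2b23*, a further gene of the subfamily, had the largest value: 8.34, 9.63, 10.56, 9.86, 9.04 and 10.04 on AAV-GFP replicates 1 to 6. On those labelled AAV-Cre it read 9.40, 9.47, 11.72, 11.08, 10.73 and 10.93. Replicates 3 to 6 were above every control, but the groups overlapped and the difference of 0.98 did not pass (adjusted p = 0.954; 0.75 without replicate 3). *B9d2*, a ciliary protein gene of the neighbourhood, gave 0.17 (adjusted p = 1.00).

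Because *Cyp2b9*, *Cyp2b13* and *Cyp2a4* are female-biased genes and 1 array had a female pattern, the other sex-biased liver genes are set beside them. Of 33 female-biased genes outside the members, 21 were measured and 0 called. Their median difference was 0.43 with all arrays (17 above and 4 below 0) and 0.02 without AAV-Cre replicate 3. The lowest p-values were those of *Acot4*, a peroxisomal thioesterase (-0.86, adjusted p = 0.738), and *Cyp17a1*, a steroid hydroxylase (0.95, adjusted p = 0.977). Of 40 male-biased genes, 33 were measured and 0 called, with medians of -0.37 and -0.10. The list means per array ran from 8.76 to 9.26 on AAV-GFP arrays for the female-biased genes, with 10.81 on replicate 3 and 8.56 to 9.18 on the other 5 arrays labelled AAV-Cre. For the male-biased genes they ran from 12.32 to 12.65 on the controls, with 10.44 on replicate 3 and 11.73 to 12.71 on the others.

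Without that array, 5 male-biased genes still had a difference of -1.02 or lower, and none of them passed the test with or without it. This cutoff was set with the values known, and the share of all probes that reach it is not given. The 33 measured genes had a median of -0.10 without that array, and with all arrays 25 were below and 8 above 0. *Cyp4a12b*, a fatty acid hydroxylase, read 13.22, 14.26 and 14.99 (lowest, median and highest) on the controls. It read 8.04 on replicate 3 and 9.44 to 12.98 on the other arrays labelled AAV-Cre, so that the groups did not overlap, with a difference of -3.06 (adjusted p = 0.179; -2.46 and 0.128 without replicate 3). For *Hsd3b5*, a steroid dehydrogenase, the difference was -2.20 (adjusted p = 0.667; -1.53 without replicate 3), and for *Selenbp2*, a selenium-binding protein, -1.40 (adjusted p = 0.447; -1.24). The serpin *Serpina1e* gave -2.06 (adjusted p = 1.00; -1.66) with an SD of 3.22 among the controls, and *Serpina12*, an adipokine of the same family, -1.24 (adjusted p = 0.656; -1.02). The groups overlapped for these 4 genes, and the part of sex-biased expression in the *Cyp2b9* difference was not tested.

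Growth hormone signalling genes, which set sex-biased P450 levels, numbered 16 measured of 20, with 0 called and a median of 0.17 (12 above and 4 below 0). *Igf1*, the main growth hormone target, gave 0.22 (adjusted p = 0.613). All its arrays labelled AAV-Cre lay above the controls, but narrowly, the lowest at 14.84 against 14.83 for the highest control. *Ghr*, the growth hormone receptor, gave -0.23 (adjusted p = 0.634). Of 18 measured pericentral genes 0 were called (median -0.02), and, of 13 periportal genes 1 was lower, the urea cycle gene *Otc* (-0.99, adjusted p = 0.00242), with a median of 0.05. Next by p were *Glul*, the pericentral glutamine synthetase (0.27, adjusted p = 0.797), *Gulo* of ascorbate synthesis (-0.38, adjusted p = 0.803) and the periportal *Aldh1b1* (-1.29, adjusted p = 0.258). The *Glul* probe was dim, at 7.95 to 8.30 on AAV-GFP arrays and 8.13 to 8.77 on those labelled AAV-Cre. The lowest detectable level was about 8.22, and several other pericentral genes read as low, so the list says little about them.

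**Figure D5:**
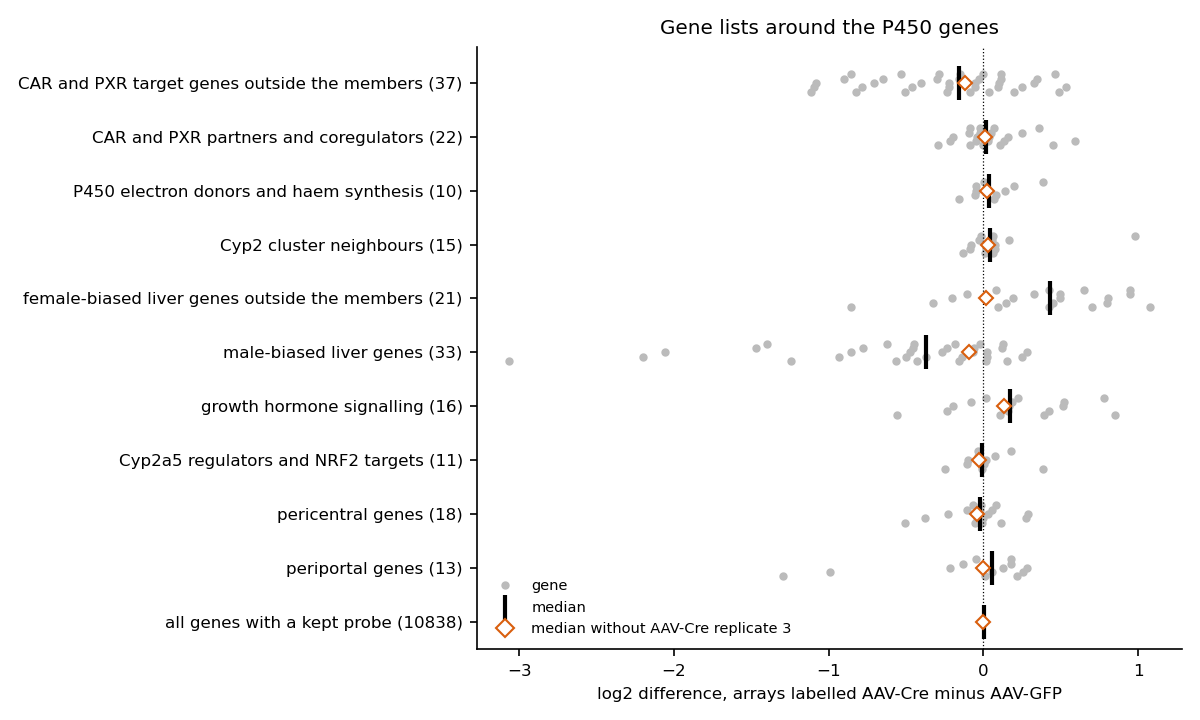
Log2 difference of arrays labelled AAV-Cre minus AAV-GFP (x axis) for the genes of each list (y axis, number measured in brackets), 1 grey point per gene for its brightest probe; single genes are not drawn for the row of all genes. Bars are list medians and open diamonds the medians without AAV-Cre replicate 3. The medians of the female-biased (0.43) and male-biased (-0.37) lists move to 0.02 and -0.10 without that array, and the target list stays at -0.12.

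The genes most like each of 3 members were taken by Pearson's r over the 12 arrays among all named probes, as a description of pattern only, since r mixes the group difference with variation within groups. Most like *Cyp2b9* were *Vldlr*, a lipoprotein receptor (r = 0.92), *Pitpna*, a lipid transfer protein (0.91), *Nap1l1*, a histone chaperone (0.90), *Fcgrt*, the neonatal Fc receptor (0.90), and the histone variant *H2al1e* (0.88), which was detected on no control array. On deviations from group means the first 4 had r of 0.84, 0.85, 0.65 and 0.83. Most opposite were *Emc9*, of a membrane protein insertion complex (-0.93), the carboxylesterase *Ces3b* (-0.92), *Aldh1a7* (-0.91), *Sytl3* (-0.90) and *Cyp4a12b* (-0.89).

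*Cyp2a12* was most like *Mtx3* (r = 0.95), the lysosomal membrane protein gene *Lamp1* (0.94), *Emc9* (0.94), *Aldh1a7* (0.92) and *Psmg3*, a proteasome assembly factor (0.92). *Mtx3* also fell (-0.44, adjusted p = 0.0373). Its most opposite genes were *Tmem185a* (-0.97), *Nap1l1* (-0.94), the recombination gene *Rad51b* (-0.94), *Gata6* (-0.90) and *Ptgds*, a prostaglandin synthase (-0.88). The *Gata6* value came from the separation of the groups, as r on deviations from group means was -0.12, while *Tmem185a*, which rose by 0.50 (adjusted p = 0.0241), had -0.85.

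*Nr1i3* had no group difference, so its likeness reflects variation between arrays. Its closest genes were *Tfdp2*, the partner of E2F factors (r = 0.93), *Hint2*, a mitochondrial hydrolase (0.92), *Fam102a* (0.92), *Mgrn1*, a ubiquitin ligase (0.91), and *Sun2* of the nuclear envelope (0.91). The most opposite were *Mdm4*, an inhibitor of p53 (-0.95), *Bbx* (-0.94), *Gpr141b* (-0.93), *Pip4p1* (-0.93) and *Tmem167* (-0.93). *Mdm4* and *Gpr141b* were at background, detected on 1 of 12 arrays each. On deviations from group means the 10 values lay between 0.91 and 0.95 or between -0.96 and -0.94.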

How the data were processed

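RNA of 12 hepatocyte samples was measured, 6 AAV-GFP and 6 labelled AAV-Cre. Only samples with an RNA integrity number above 7.5 were used. The deposited export holds, for 45281 probes, a signal (an intensity on a linear scale with background left in) and a detection p-value, both written by the authors from GenomeStudio (version not given in the sources read). A further deposited table carries intensities after quantile normalization and filtering by the authors (19627 probes); it was used for names and as an alternative.

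Here the exported signal was quantile-normalized, log2-transformed and kept where the detection p was at most 0.05 on at least 1 array (20561 probes). Groups were compared by limma 3.58.1 in R 4.3.3 (lmFit, eBayes, two-sided, Benjamini-Hochberg over all kept probes), in place of the SAM method of the study, and tested on simulated data. Exact permutation tests used all 924 assignments. Correlations used numpy 2.4.6 and scipy 1.17.1. Symbols came from the platform annotation: 16568 probes had 1 symbol, 10 several and 3049 none, and 3993 kept probes were unnamed, of which 934 were absent from the value table. A probe detected on no array of a group has a bound, the other group's mean over the mean of the lowest detected signal per array (8.22 on average) or the probe's own signal where higher. A list used each gene's brightest probe (highest mean of the 12 arrays). The members and lists were chosen with earlier results of these data known. Named genes were all member probes, the 5 genes most alike and 5 most opposite to *Cyp2b9*, *Cyp2a12* and *Nr1i3*, called list genes, the 2 lowest p-values of each pathway list, and label checks; *Gstt1*, *Cyp2c29*, *Hsd3b5*, *Serpina1e* and *Serpina12* were singled out after their values were seen. Alternatives were the replicate block, normexp, median scaling, the authors' normalized values, other detection filters, a mean-variance trend, array weights and leaving out each array. Promoter windows came from RefSeq (GRCm38.p6).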

Additional observations from a re-analysis of the deposited data

Results flagged for a closer look

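In 34 groups of 6 arrays (17 probes, 2 groups), 2 had an array far from the rest of its group, and chance alone flags about 1 in 20 groups. *Cyp2b13* (ILMN_1214531) read 13.82 on AAV-Cre replicate 3, with the next array at 7.88, a gap of 0.963 of the group's range. This is the array with the female pattern. *Cyp2a5* by its dimmest probe, ILMN_3079804, read 11.48 on AAV-GFP replicate 4 with the next control at 9.62, a gap of 0.691 of the range. The other *Cyp2a5* probes and *Cyp2a4* were also highest among the controls on that array.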

How the results depend on the processing

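Of the 17 probe differences, 10 kept their sign under every alternative run. The sample titles number the preparations 1 to 6 in both groups but do not say that same numbers are pairs. For its RT-qPCR comparisons the study used a paired t test. The data do not settle the question. Deviations of same-numbered arrays correlated at 0.40, 0.13, -0.03, 0.22, -0.20 and 0.37 for numbers 1 to 6, over 0.1 in 4 of 6 pairs. Of the 12 samples, 7 correlated best with their own number in the other group. With the number as a replicate block, *Cyp2b9* gave 2.91 (adjusted p = 0.132) and *Cyp2a12* -0.39 (adjusted p = 0.0923), with 20 probes called at an adjusted p under 0.05 and 177 under 0.25, beside 34 and 111 without it.

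With normexp, *Cyp2b9* gave 3.52 (adjusted p = 0.0818), *Cyp2a12* -0.39 (adjusted p = 0.254), and 18 and 56 probes were called. With median scaling, they gave 2.97 (adjusted p = 0.0648) and -0.32 (adjusted p = 0.605), and 10 and 37 probes were called; the median of all probes was then 0.029. Without a detection filter *Cyp2b9* gave 2.91 (adjusted p = 0.0638). Leaving out single arrays gave *Cyp2b9* 2.46 to 3.15, *Cyp2a12* -0.41 to -0.36, and 19 to 42 and 63 to 162 called probes. The cause of these changes was not tested.

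Signs turned for 7 probes whose differences never passed the test. Leaving out single arrays gave *Cyp2a5* ILMN_3079804 -0.10 to 0.43, *Cyp2b10* ILMN_2594926 -0.054 to 0.61, *Cyp2b10* ILMN_1215955 -0.037 to 0.062, and *Nr1i3* -0.12 to 0.24 (ILMN_1212992), -0.024 to 0.069 (ILMN_2481771), -0.10 to 0.20 (ILMN_2588846) and -0.033 to 0.22 (ILMN_2926661). Median scaling gave *Cyp2b10* ILMN_1215955 -0.0039, and array weights *Nr1i3* ILMN_2481771 -0.014. *Cyp2b13*, *Cyp2b10* ILMN_1215955 and *Nr1i3* ILMN_1221049 gave no value where detection on 6 arrays was required. Signal over background limits *Cyp2b13*, the dim *Cyp2b10* probe and both dim *Nr1i3* probes.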
